A study of Mus musculus with 8 samples.

Results

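The cyclins, kinases and regulators that carry spermatocytes through their divisions were followed in testis RNA of 4 groups of house mice. The members were 10 named genes, taken from the array by gene symbol: the phosphatase gene Cdc25c, the cyclin genes Ccna1, Ccna2, Ccnb1 and Ccnb2, the kinase genes Cdk1, Plk1, Nek2 and Bub1, and Cdc20, an activator of the anaphase-promoting complex. Of these, 9 were found among the 8251 genes that the annotation names, by 14 of the 12422 probe sets. On these arrays several short probes, read together as a probe set, stand for a transcript. No probe set carried the symbol Ccnb1. Dim probe sets were left out of testing, namely those under the 40th percentile of the array on more than 6 of the 8 arrays. This kept 12 of the 14, with at least 1 for each of the 9 genes, and 8874 in the whole series. Both that were left out report Bub1.

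Total RNA from testis was hybridised to Affymetrix arrays, with 2 arrays for each group. The groups carry the subspecies names castaneus, domesticus and musculus and, for the last, the label ssp, whose meaning the labels do not give. The sources used here do not give strain, age, treatment or number of animals, and the labels call the 2 arrays of a group technical replicates. Every standard error and call below therefore measures the spread between arrays of an RNA sample and not between animals, and the 8 arrays limit the precision of each value. Intensities are as deposited, already scaled by the authors, so values are compared across arrays within a probe set and never between probe sets. In whole testis RNA, fewer cells of a type and less RNA per cell cannot be told apart. Whether the probes match the transcripts of all 4 groups equally was not tested. A difference in signal may therefore not be one in transcript level.

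Entry into division is set by the kinase Cdk1 with its cyclin partners. The complex is held inactive by phosphates that Wee1 and Pkmyt1 add and that Cdc25 phosphatases remove, and Plk1 helps to switch it on. Cdc20 then directs the anaphase-promoting complex to the cyclins, while the Bub1 checkpoint holds it back until chromosomes are attached. In the testis many of these transcripts build up in pachytene spermatocytes before the meiotic divisions, and the germ cell cyclin A1 is needed for the first of them.

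Many division genes share 2 promoter features, the CCAAT box and the cell cycle genes homology region, through which they are switched on late in the cell cycle and kept silent at other times. RefSeq promoter windows of assembly GRCm38.p6 were matched for 8 of the 10 members, with 1 window of 300 bases each, 250 of them before the annotated start. Cdc25c and Ccna2 had no window. CCAAT, read on both strands, was present in all 8 matched windows and in 37.4% of the 32851 windows in the table. Of the 8, 6 held at least 2 matches, against 11.7% of all windows. The homology region core, searched as TTTGAA on both strands or as the palindrome TTCGAA, was present in 5 of the 8, those of Ccnb2, Cdk1, Plk1, Cdc20 and Bub1, against 19.2% of all windows. The core together with at least 2 CCAAT matches was present in 4 of the 8 and in 2.31% of all windows. No CCAAT match overlapped a core match. These are letter matches, and no binding was measured.

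Of these 4, the windows of Ccnb2, Cdk1 and Cdc20 are printed to show the arrangement. That of Nek2, which holds CCAAT without the core, is printed beside them. Each stretch runs 5′ to 3′ from 100 bases before the annotated start through 50 bases from it, on the strand of the gene, and capitals mark CCAAT (or its reverse complement ATTGG) and the core. The stretches are chr9:70421505-70421654 on the minus strand for Ccnb2, chr10:69352863-69353012 on the minus strand for Cdk1, chr4:118437294-118437443 on the minus strand for Cdc20 and chr1:191821373-191821522 on the plus strand for Nek2, in GRCm38.p6.
Ccnb2: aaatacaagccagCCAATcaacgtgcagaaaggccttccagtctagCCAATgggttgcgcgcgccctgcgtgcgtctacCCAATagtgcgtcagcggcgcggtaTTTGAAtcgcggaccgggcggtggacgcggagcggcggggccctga
Cdk1: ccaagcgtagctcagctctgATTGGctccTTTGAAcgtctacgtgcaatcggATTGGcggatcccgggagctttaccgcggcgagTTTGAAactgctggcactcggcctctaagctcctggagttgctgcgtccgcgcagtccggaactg
Cdc20: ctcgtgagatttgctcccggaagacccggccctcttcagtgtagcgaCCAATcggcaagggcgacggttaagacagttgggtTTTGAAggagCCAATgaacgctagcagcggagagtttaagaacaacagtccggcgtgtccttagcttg
Nek2: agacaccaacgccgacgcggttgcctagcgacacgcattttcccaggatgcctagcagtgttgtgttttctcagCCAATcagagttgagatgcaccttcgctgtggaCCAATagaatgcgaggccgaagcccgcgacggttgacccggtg

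In Ccnb2, 3 CCAAT matches followed each other at 33 bases, first letter to first letter. The pair in Nek2 was also 33 bases apart, and the pairs nearest the start in Cdk1 and in Ccnb1 were 32 bases apart. In Cdc20 the spacing was 45 bases.

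**Figure D1:**
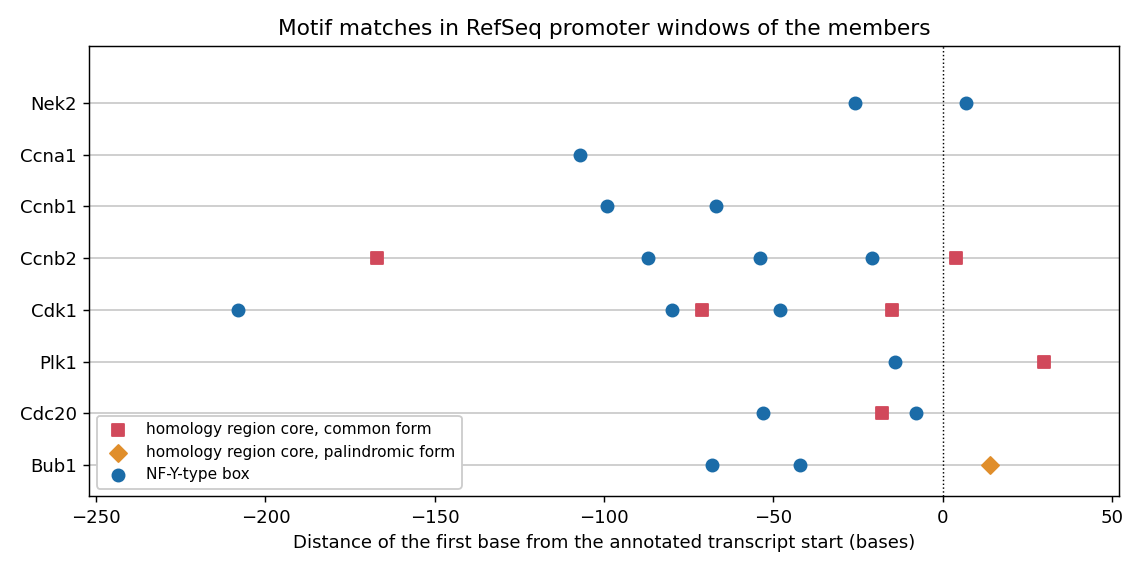
Positions of motif matches in the promoter windows of 8 members, as the distance in bases of the first matched base from the annotated start (dotted line), upstream to the left. Squares and the diamond are the homology region core in its forms TTTGAA and TTCGAA, and circles are CCAAT, named in the key after its binding factor NF-Y; in Ccnb2 the 3 circles are evenly spaced at 33 bases.

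Among the members, the Cdc25c signal varied most among the 4 RNA samples, while the signals of Cdk1, Cdc20, Ccnb2 and Ccna1 stayed within 1.44-fold. By the range of the 4 group means, Cdc25c spanned 6.27-fold by 1 probe set and 3.83-fold by the other. It was lowest in castaneus and highest in domesticus by both. The signal of Plk1 by 1 of its 3 probe sets spanned 3.08-fold with its highest value in ssp. The median range of the 12 member probe sets was 0.65 on the log2 scale, against 0.81 over all 8874, and 4 of the 12 spanned at least 1 against 38.7% of all. The median absolute log2 difference between the replicate arrays was also smaller for the members, at 0.27 against 0.40 for all. Whether the narrower range of the members follows from this smaller spread between arrays was not tested.

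The members were chosen by gene symbol, but the list was proposed with the intensities of these same 8 arrays and their differences among the groups in view. Their levels are therefore given as a description, and the calls of limma, a linear model fitted over all probe sets, are counted without being read as evidence about the members. A probe set was called if the adjusted p was under 0.05 and the difference at least 1 on the log2 scale. Over the 4 groups 1 of the 12 was called, that of Cdc25c identified as 102934_s_at, against 1.76% of all probe sets. At an unadjusted p under 0.05 there were 4 of the 12 and 1415 of the 8874. Over the 6 pairs of groups 2 of 72 combinations of member probe set and pair were called, against 0.731% of all combinations, both of them Cdc25c in castaneus against domesticus, the pair in which 0.676% of all probe sets were called. Where 2 of the 4 groups are said below to overlap or not, the share of all probe sets with those 2 apart was not counted. Such separations rest on 2 arrays a group and are description only.

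**Figure D2:**
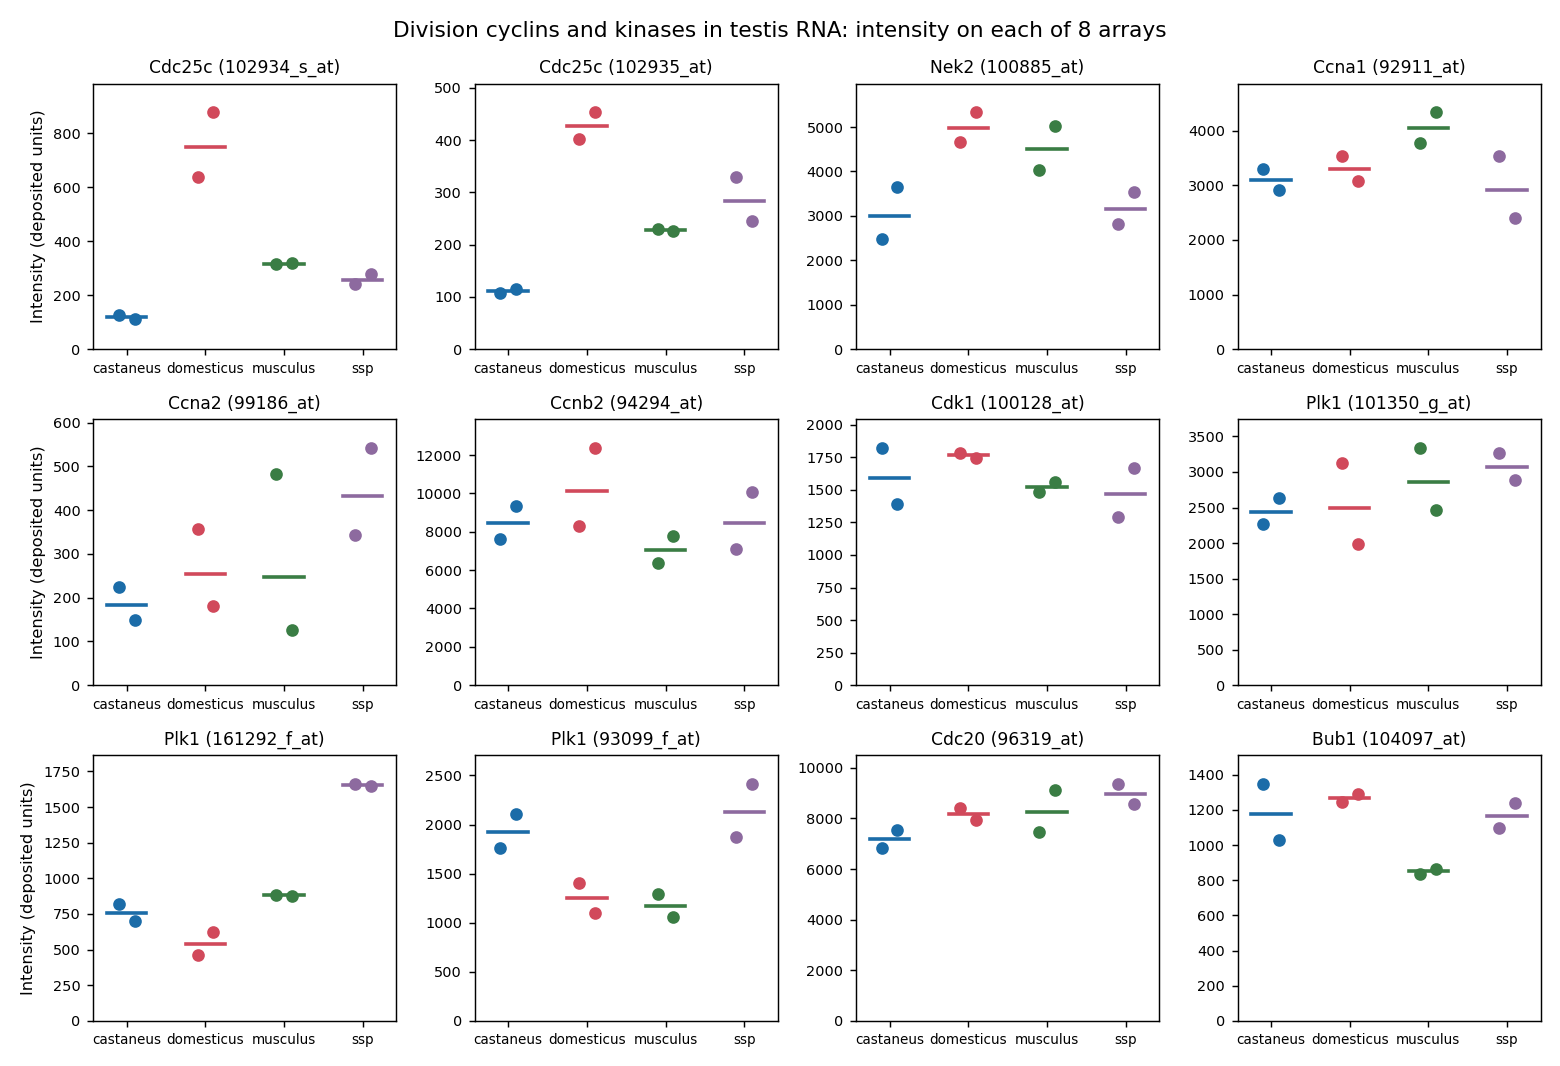
Intensity in deposited units of the 12 tested member probe sets on each of the 8 arrays. Each panel is 1 probe set with its own axis from 0, points are arrays, and bars are the geometric means of the 2 arrays of a group; for Cdc25c the castaneus arrays lie below and the domesticus arrays above the other arrays in both panels.

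Cdc25c encodes a phosphatase that activates the Cdk1 and cyclin B complex. Its probe set 102934_s_at read 127.2 and 112.5 on the castaneus arrays, 640.3 and 879.4 in domesticus, 314.6 and 320.6 in musculus, and 240.6 and 277.4 in ssp. The castaneus arrays were the lowest and the domesticus arrays the highest of the 8, and no 2 groups overlapped. The share of all probe sets without any overlap among the 4 groups was not counted. On the log2 scale castaneus differed from the mean of the other 3 groups by -1.72 (SE 0.22) and domesticus by 1.81 (SE 0.22). Both differences were called, the 2 of 48 combinations of member probe set and group that were, against 0.654% of all combinations, with 0.327% of all probe sets called lower in castaneus and 0.338% higher in domesticus. In Affymetrix identifiers the letter s, like g and f, marks a set whose probes may also match similar transcripts.

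The other Cdc25c probe set, 102935_at, carries no such letter. It read 108.4 and 114.9 in castaneus, 403.1 and 453.8 in domesticus, 229.9 and 226 in musculus, and 328.7 and 246 in ssp. Again the castaneus arrays were lowest and the domesticus arrays highest, and no groups overlapped. The differences from the other 3 groups were -1.44 (SE 0.21) for castaneus and 1.15 (SE 0.21) for domesticus, and neither was called. Between them the probe sets disagreed on the order of the middle groups, musculus being above ssp by 102934_s_at and below it by 102935_at. An arrangement with both castaneus arrays below and both domesticus arrays above the remaining 4 was found for 0.699% of all probe sets, and among the members for these 2. With any 1 array left out, the difference of domesticus from castaneus stayed between 5.35-fold and 7.35-fold for 102934_s_at and between 3.61-fold and 4.07-fold for 102935_at. The call over the 4 groups was lost in each of those 8 fits, with the replicate number as a block and without the filter on dim probe sets. The block called 0.473% of all probe sets and the fit without that filter 0.25%.

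The A-type cyclins differ in where they act. Ccna1, the germ cell cyclin, read 3292 and 2907 in castaneus, 3541 and 3077 in domesticus, 3771 and 4343 in musculus, and 3545 and 2396 in ssp. Both musculus arrays lay above the other 6, as for 6.37% of all probe sets, and the other groups overlapped. Musculus was 0.38 above the mean of the other groups on the log2 scale (SE 0.23), which was not called, and the range of the group means was 1.39-fold.

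Ccna2, the cyclin A of dividing cells in general and in the testis of mitotic germ cells, was read less precisely. Its values were 224.5 and 147.8 in castaneus, 357.7 and 181.8 in domesticus, 483.1 and 125.7 in musculus, and 343 and 542.5 in ssp. The musculus arrays took in the lowest of the 8 values and the next to highest, so that musculus overlapped with each other group. The group means spanned 2.37-fold, and the replicate SD in musculus was 1.37 on the log2 scale (n = 2). Castaneus lay below ssp without overlap, by means of 182.2 and 431.4, and the difference was not called.

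Ccnb2, a B-type cyclin and partner of Cdk1, read 7630 and 9317 in castaneus, 8282 and 12372 in domesticus, 6351 and 7760 in musculus, and 7090 and 10087 in ssp. In each group replicate 2 read higher than replicate 1, and the groups overlapped except domesticus and musculus. The group means ran from 7020 in musculus to 10123 in domesticus, a 1.44-fold range. Cdk1, the kinase itself, read 1824 and 1393 in castaneus, 1784 and 1749 in domesticus, 1484 and 1559 in musculus, and 1293 and 1668 in ssp. Its range of 1.20-fold was the narrowest of the 12 tested member probe sets and was narrower than that of 93.2% of all probe sets tested. The part of the spread between arrays in that comparison was not tested. Domesticus lay above musculus and ssp without overlap, but no Cdk1 difference was called. Quantile normalization placed the lowest mean in musculus in place of ssp.

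Nek2, a kinase of the centrosome, read 2471 and 3652 in castaneus, 4663 and 5336 in domesticus, 4044 and 5014 in musculus, and 2807 and 3548 in ssp. Every domesticus and musculus array was above every castaneus and ssp array, a split whose share over all probe sets was not counted. The order of the 4 groups was that of Cdc25c by 102934_s_at, over a range of 1.66-fold. Domesticus differed from the mean of the other groups by 0.51 (SE 0.25) and castaneus by -0.46 (SE 0.25), and neither was called. With each array centred on its median, ssp in place of castaneus had the lowest mean.

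Plk1, the polo-like kinase that promotes entry into division, was reported by 3 probe sets that did not give the same order. By 161292_f_at it read 819 and 703.2 in castaneus, 463 and 622.9 in domesticus, 882.2 and 877.5 in musculus, and 1663 and 1649 in ssp. The ssp arrays were above the other 6, as for 6.42% of all probe sets, and the domesticus arrays below the other 6, as for 5.52%. No groups overlapped, and the share of all probe sets without any overlap was not counted. Ssp was 1.22 above the mean of the other 3 on the log2 scale (SE 0.21) and domesticus -0.95 from it (SE 0.21), without a call over the 4 groups at the settings used here. This probe set was called with the filter at the 60th percentile and with a trended and robust variance, beside 5.25% and 4.32% of all.

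By 93099_f_at, Plk1 read 1761 and 2104 in castaneus, 1408 and 1104 in domesticus, 1296 and 1058 in musculus, and 1869 and 2416 in ssp. Here castaneus and ssp overlapped each other and lay above domesticus and musculus, over a range of 1.81-fold. The share of all probe sets with such a split was not counted. By 101350_g_at it read 2266 and 2632 in castaneus, 3134 and 1990 in domesticus, 3339 and 2458 in musculus, and 3267 and 2891 in ssp. These means spanned 1.26-fold, and the domesticus arrays included the lowest of the 8 values and overlapped with each other group. Median centring changed both ends of its order, to musculus highest and domesticus lowest. Ssp thus had the highest mean by all 3 Plk1 probe sets as deposited, by between 0.24 and 1.22 on the log2 scale against the other 3 groups.

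Cdc20, which starts the exit from division, read 6815 and 7542 in castaneus, 8398 and 7956 in domesticus, 7457 and 9139 in musculus, and 9370 and 8587 in ssp. The ssp and castaneus arrays did not overlap, nor did those of ssp and domesticus or of domesticus and castaneus, and musculus overlapped with each of them. The range was 1.25-fold, from 7169 in castaneus to 8970.2 in ssp, and no Cdc20 difference was called.

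Bub1, the kinase of the spindle checkpoint, read by 104097_at 1349 and 1029.8 in castaneus, 1244 and 1292 in domesticus, 833.8 and 866.6 in musculus, and 1099 and 1240.4 in ssp. Both musculus arrays were below the other 6, as for 6.68% of all probe sets, and among the rest domesticus and ssp alone did not overlap. Musculus was -0.50 from the mean of the other groups (SE 0.20), which was not called, and the range was 1.49-fold. The untested probe set 162264_s_at read between 17.4 and 128 over the 8 arrays, and its 2 castaneus arrays were 92 and 17.4. The other, 97095_at, read between 2.8 and 25, with 7 of the 8 arrays under 18.7, the level below which intensities were set to a floor.

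**Figure D3:**
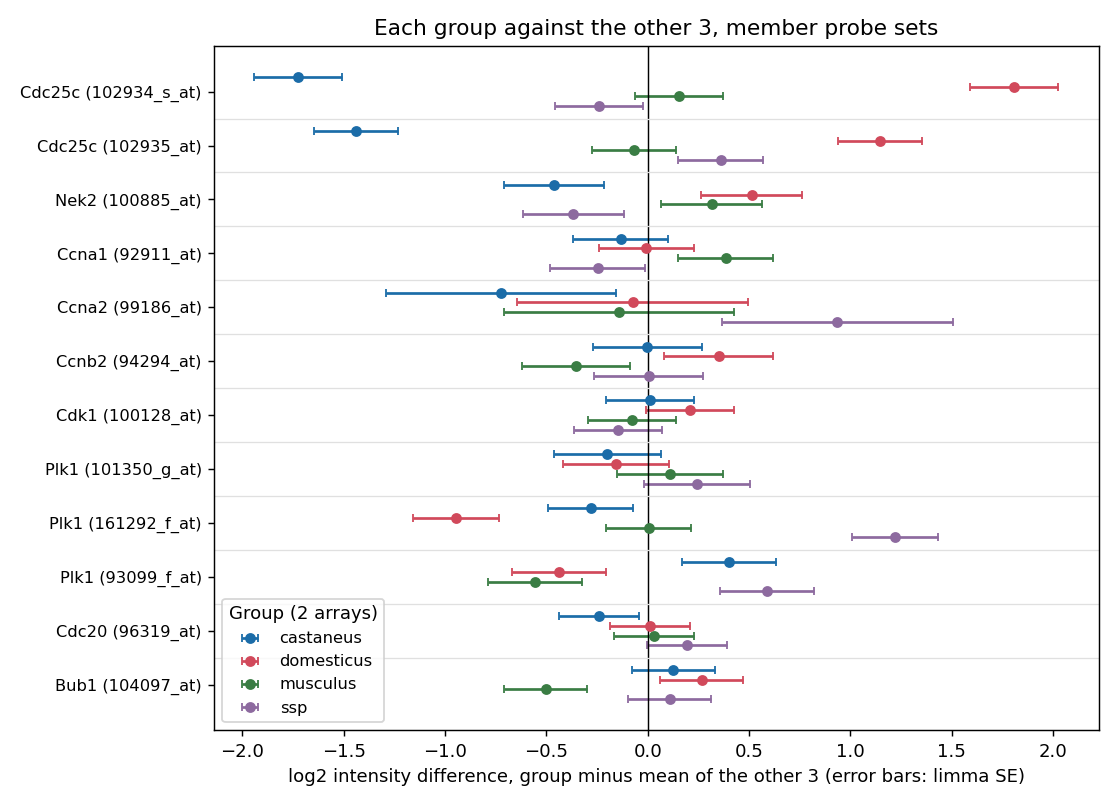
Difference in log2 intensity of each group from the mean of the other 3, for the 12 tested member probe sets. Points are estimates from 2 arrays a group and bars the standard error from limma; the castaneus and domesticus points of Cdc25c at -1.72 and 1.81 lie furthest from 0.

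As a list, the members lay on both sides of 0 in each group. The median difference from the mean of the other 3 groups was -0.22 in castaneus, with 3 of 12 probe sets above 0 and 9 below. It was 0.11 in domesticus, with 7 above 0, -0.03 in musculus, with 6 above 0, and 0.15 in ssp, with 8 above 0. Over all 8874 probe sets the medians were 0.01, -0.01, 0.01 and 0.05. These small list medians moved with the setting: that of ssp was 0.04 with median centring, that of domesticus 0.22 without musculus replicate 1 and 0.20 without domesticus replicate 2, and that of musculus 0.01 without ssp replicate 1. Without castaneus replicate 1 and without ssp replicate 2 that of musculus was -0.0023 and -0.0071, without domesticus replicate 2 it was -0.019, and without musculus replicate 1 it was -0.06. At least 1 group had both arrays beyond the other 6 for 5 of the 12 member probe sets, against 39.8% of all.

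The other division genes on the array, a list of 91 genes written with earlier results known, were represented by 62 tested genes. None of the 62 was called over the 4 groups by limma, nor for any group against the other 3 in either direction. The share called over all probe sets was 1.76%. At an unadjusted p under 0.05 over the 4 groups there were 8 of the 62, beside 1415 of all 8874. With a trended and robust variance 2 of the 62 (Hspa2 and Birc5) were called, beside 4.32% of all. The median range was 0.62 on the log2 scale, against 0.65 for the members.

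Of 15 other cyclins and cyclin-dependent kinases, 9 were tested and 0 called. The widest range was that of Cdk7, the kinase that activates other such kinases, at 168.5 and 138.3 in castaneus, 30.7 and 98.3 in domesticus, 201 and 120.5 in musculus, and 318.8 and 211.5 in ssp. Its domesticus arrays were below the other 6, as for 5.52% of all probe sets. Both domesticus readings were dim, under the medians of those arrays at 176 and 157.95, and they lay far apart. Cdk4, the kinase of the D-type cyclins, stayed within 1.07-fold.

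Among regulators of these kinases, 12 of 15 genes were tested and 0 called. Hspa2, the spermatocyte chaperone needed to assemble Cdk1 with cyclin B, read 8269 and 9687 in castaneus, 4543 and 4305 in domesticus, 7772 and 8202 in musculus, and 9497 and 9382 in ssp. The domesticus arrays were below the other 6 for Hspa2, as for 5.52% of all probe sets, by means that spanned 2.13-fold. The widest range in this list was that of Cdkn1a, an inhibitor of cyclin-dependent kinases, at 2.75-fold from castaneus to musculus. Wee1, the kinase that opposes Cdc25 phosphatases, spanned 1.15-fold and Cdc25a, another phosphatase of that family, 1.16-fold.

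Of 16 other division kinases 10 were tested and 0 called, and Ttk, a checkpoint kinase, had the widest range at 2.12-fold. Of 21 genes of the anaphase-promoting complex and the checkpoint 14 were tested and 0 called. The widest range there was that of Ube2c, a ubiquitin-conjugating enzyme of that complex, at 3.75-fold, by a dim probe set that read 19.3 and 83.4 on the castaneus arrays. Of 24 genes of chromosome segregation 17 were tested and 0 called. Smc2, of condensin, spanned 3.50-fold with its lowest values in musculus, at 103.3 and 104.6, and Birc5, the passenger protein survivin, 2.56-fold with its lowest values in castaneus, at 392 and 518.8.

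**Figure D4:**
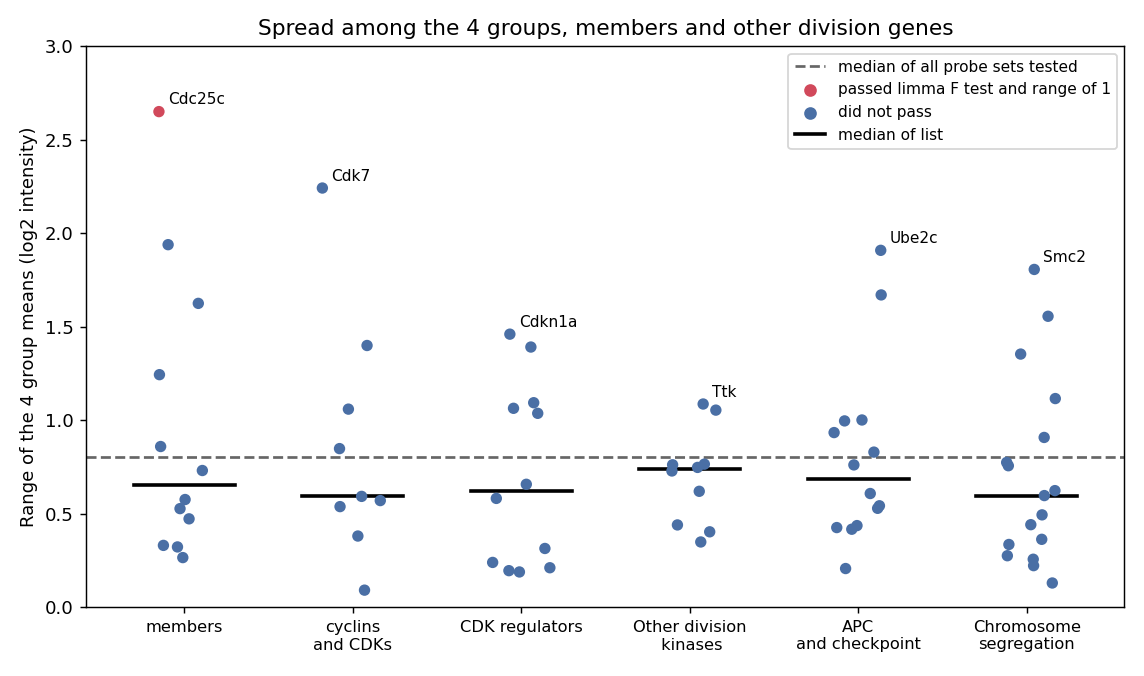
Range of the 4 group means in log2 intensity for the 12 member probe sets and for 62 other division genes in 5 lists. Each point is a probe set, black bars are list medians, the dashed line is the median of all 8874 probe sets at 0.81, and the name is that of the widest in each list; the red point, Cdc25c at 2.65, was the one called.

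Markers of testis cells were present in each group. The 9 spermatid markers, protamines and transition proteins among them, summed on an array to between 258240 and 314293 intensity units in castaneus, 226043 and 237209 in domesticus, 204213 and 260209 in musculus, and 284859 and 336950 in ssp. Castaneus and domesticus, which held the lowest and the highest Cdc25c, did not overlap in this sum. Against the mean of the other 3 groups, 9 of the 9 were above 0 for castaneus, 8 for ssp, 2 for domesticus and 0 for musculus, and none was called over the 4 groups. The 6 tested of 10 spermatocyte markers, Hspa2 among them, summed to between 49258 and 59734 in castaneus, 40730 and 41985 in domesticus, 42412 and 44682 in musculus, and 50212 and 58233 in ssp, and none was called. A sum of intensities weights bright markers most. The median log2 difference of the 6 from the mean of the other groups gave another order, with castaneus at -0.20, domesticus at -0.15, musculus at -0.05 and ssp at 0.37. Spermatogonial markers overlapped among the groups, at 2953 to 6083. In musculus, where Bub1 was lowest and Ccna1 highest, the 6 tested of 7 Leydig cell markers summed to between 13446 and 14257, against 2963 to 5494 in the other groups, and 2 of them (Star and Cyp17a1) were called. Also in musculus, the 5 tested of 6 macrophage markers summed to between 2333 and 3084, against 1362 to 2121 elsewhere, and the 2 tested of 3 erythroid markers to between 13970 and 17682, against 1558 to 5394. The part of these differences in the values of the members was not tested.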

How the data were processed

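Total RNA from testis was measured on 8 Affymetrix arrays, 4 groups of 2, per the labels. The authors deposited linear intensities, 1 per probe set and array. Every value was positive. Trimmed means (2% off each end) of 495.6 to 496.7 show a common scaling. The sources used here do not name the method that summarised and scaled the probes. Array medians ran from 151.2 to 182.6, a span of 0.27 on the log2 scale.

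Intensities below the 10th percentile, 18.7, were raised to it and log2 was taken. Symbols came from the platform annotation, updated by Entrez number to RefSeq (GRCm38.p6); 10833 of 12422 probe sets had 1 symbol, 396 several and 1193 none. A model with 1 mean per group was fitted over all 8 arrays with limma 3.58.1 in R 4.3.3 (4 residual degrees of freedom), with Benjamini-Hochberg adjustment over all 8874 probe sets tested, and was tested on simulated data.

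Members and lists were chosen with earlier results of these data known. All members are named; of the other lists, those called, the widest of each and others chosen after their values were seen (Cdk4, Hspa2, Wee1, Cdc25a, Birc5). Where a gene of those lists had several probe sets, the brightest was used. Alternatives changed the floor, filter, scaling, variance model, replicate block and arrays used.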

Additional observations from a re-analysis of the deposited data

How the results depend on the processing

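The difference between the highest and the lowest group kept its sign for each of the 12 member probe sets under the 16 alternatives run. Most of these could not change it. Floor, filter, variance model and replicate block left each difference as it was, so only the scalings and the left-out arrays could move it. The highest and lowest groups were also picked from these same arrays. Median centring lowered that of Cdc20 from 0.32 to 0.18 and that of Plk1 by 101350_g_at from 0.33 to 0.19 on the log2 scale. Leaving out 1 of 2 arrays moves a group mean only as far as the array that is kept, so it is a weak test of these signs. The counts of member calls moved. Over the 4 groups 1 probe set was called, beside 1.76% of all. This became 3 with the filter at the 60th percentile (5.25% of all) and 2 with a trended and robust variance (4.32%). It became 0 without a filter (0.25%) or with the replicate number as a block (0.473%), so the share of all moved in the same direction. For a group against the other 3 the count of 2 became 5, 4, 0 and 0 in that order, and 1 with median centring. Over the pairs the count of 2 became 6, 4, 0 and 0, and 1 with median centring or quantile normalization. Leaving out 1 array gave 0 to 0 for each of these 3 counts, and in each such fit 3 member probe sets had an unadjusted p under 0.05 for the 4 groups. Fitting only the 4 arrays of a pair by limma gave 0 for the members and 0 for all probe sets. The 0 of the members is therefore not particular to them. At an unadjusted p under 0.05 in these fits there were 13 of 72. No share of all is given for that count, so it is not read as a result about the members. Of the other division genes 0 were called, and 2 with a trended and robust variance. Deviations of same-numbered arrays correlated at 0.03 to 0.17 across probe sets, above 0 in each of the 6 pairs of groups. A shared effect of the replicate number is therefore not excluded, though the main fit did not pair the arrays by it. With that number as a block no member probe set was called in any of the 3 counts. The share of all probe sets called over the 4 groups ran from 0.103% to 5.25% over the same alternatives. Such shares are not given for the counts by group and by pair.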
